A study of Homo sapiens with 21 samples.

Results

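Transcript levels of 9 genes of the histone-binding SET, NAP1 and ANP32 families were followed in every library of a study that compared knockdown by shRNA with knockdown by an RNA-guided enzyme. The 9 genes were SET, TSPYL2, TSPYL1 and TSPYL4, NAP1L1 and NAP1L4, and ANP32A, ANP32B and ANP32E. They were taken by gene symbol from a table of 27142 genes, and all 9 were among the 13679 genes that reached 1 FPKM (fragments per kilobase of exon per M reads) in at least 3 of the 21 libraries. The set was chosen by the measured FPKM of SET and TSPYL2, which were low in the cells given the ANXA4 shRNA. The values of that group against the NT shRNA group are therefore given as a description, without a test.

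The cells were HEK 293FT, an established human embryonic kidney line, transfected with Lipofectamine 2000 at passages 8 to 12 and harvested for RNA after 48 h. There were 7 groups of 3 biological replicates. Cells received an shRNA labelled NT (the control), ANXA4 or B4GALNT1, or RfxCasR, an RNA-cleaving CRISPR enzyme of the Cas13 kind, together with a single guide RNA (gRNA) labelled NT or B4GALNT1, or RfxCasR with an array of guides labelled NT or ANXA4. ANXA4 encodes annexin A4, a calcium-dependent membrane-binding protein, and B4GALNT1 encodes an enzyme of ganglioside synthesis. No group here was untransfected, and each target had 1 shRNA design, so the level without any construct is not shown by these data.

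The targeted genes were checked against the labels. ANXA4 was at 5.567 to 6.312 FPKM with the NT shRNA and 2.150 to 2.557 with the ANXA4 shRNA. B4GALNT1 was at 3.915 to 4.268 FPKM with the NT shRNA and 2.594 to 2.959 with the B4GALNT1 shRNA, and at 5.093 to 6.875 with the NT gRNA and 2.027 to 2.353 with the B4GALNT1 gRNA. In the arrays the labels and the data were at odds, since ANXA4 stood at 3.215, 2.544 and 3.337 FPKM in the libraries labelled NT array and at 7.224, 6.765 and 7.115 in those labelled ANXA4 array. The authors' deposited table gives the opposite sign for this comparison, with a log2 change of -1.21 for ANXA4. Directions within the arrays are given below as the columns are labelled, with the authors' sign beside them where a direction is drawn. Depth worked back from the FPKM steps was 21.4 to 30.7 M reads for the 15 libraries with an shRNA or a single guide and 34.7 to 39.5 M for the 6 with an array. Each member had between 461 reads (TSPYL4) and 22323 reads (SET) in a library. All 8 genes listed as markers of HEK 293 cells were at or above 1 FPKM in every library. Of 16 markers of blood, endothelium, fibroblasts, liver, lung and differentiated kidney, 13 stayed below 1 FPKM everywhere, with HBB and UMOD at 0, and their summed level was 6.391 to 13.629 FPKM. The HEK markers summed to 571 to 591 FPKM with the NT shRNA and to 745 to 904 in the other 18 libraries, and their part in the results was not tested. In bulk RNA of this kind, fewer cells with a transcript and less transcript per cell cannot be told apart.

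Histone chaperones are acidic proteins that hold histones away from DNA, carry them into the nucleus and hand them on during the assembly and disassembly of nucleosomes. SET, the NAP1-like proteins and the TSPYL proteins share the fold named after NAP1, whose members bind core histones as dimers. The ANP32 proteins are built differently, from leucine-rich repeats and a long acidic tail. SET and ANP32A are also known as inhibitors of protein phosphatase 2A, and ANP32E is known for taking the variant histone encoded by H2AFZ out of chromatin.

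SET is annotated as NM_003011 at chr9:131451509-131458675 on the plus strand (hg19). It was the most abundant of the 9 in 5 groups by mean, and with the ANXA4 shRNA it was, like TSPYL2, far under its control. SET stood at 189.565, 187.338 and 186.511 FPKM with the NT shRNA. It stood at 68.729, 69.078 and 68.756 FPKM with the ANXA4 shRNA and at 156.216, 152.152 and 152.725 with the B4GALNT1 shRNA. The ANXA4 shRNA libraries lay far under every other library, whose lowest value was 152.152, and the B4GALNT1 shRNA libraries lay between them and the rest. In the RfxCasR groups SET was at 203.607, 198.043 and 194.651 FPKM with the NT gRNA and at 192.244, 186.568 and 185.461 with the B4GALNT1 gRNA. It was at 197.761, 189.712 and 202.242 FPKM in the libraries labelled NT array and at 181.831, 177.736 and 194.383 in those labelled ANXA4 array. The 12 RfxCasR libraries thus spanned the NT shRNA level. The mean with the ANXA4 shRNA, 68.9 FPKM ± 0.194 (SD, n = 3), was 63.3% below the NT shRNA mean of 187.8 ± 1.58 and 65.4% below the NT gRNA mean of 198.8 ± 4.52. On the log2(FPKM + 1) scale, used for all differences here, the first gap was -1.43 (SE 0.023).

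Outside the choosing comparison, SET fell with the B4GALNT1 shRNA by 0.29 on the log2 scale (SE 0.023, adjusted p = 1.11e-07, limma with Benjamini-Hochberg adjustment over the 13679 genes, lower in 3 of 3 libraries). That test uses the same NT shRNA libraries as the description above. With the B4GALNT1 gRNA the difference was -0.08 (95% interval -0.13 to -0.03). The 3 B4GALNT1 gRNA values lay below the 3 NT gRNA values, and the unadjusted p of 0.00377 gave a limma adjusted p of 0.554. Between the arrays as labelled the difference was -0.09 (95% interval -0.21 to 0.03, limma adjusted p = 0.978), and the authors' deposited table gives 0.10.

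SET has close copies in the genome, which matters for how its reads were assigned. SETSIP, a gene derived from a SET transcript, was at 8.03 FPKM ± 0.810 (SD, n = 3) with the NT shRNA and 2.65 ± 0.626 with the ANXA4 shRNA, a difference of -1.32 beside the -1.43 of SET. In the GENCODE 29 transcripts, a local alignment covered 760 bases of the SETSIP transcript, of which 736 were identical to SET (96.8%). Of the 860 stretches of 50 bases in SETSIP, 150 (17.4%) also occurred unbroken in SET. The 2 coding stretches below, of 90 bases each, were picked as the ungapped aligned window with the most differences. The 7 positions that differ are in capitals, and the genes are more alike over the whole alignment. The SET stretch is bases 970 to 1059 of ENST00000322030.12 and the SETSIP stretch bases 682 to 771 of ENST00000596516.2, both read 5′ to 3′.
SET: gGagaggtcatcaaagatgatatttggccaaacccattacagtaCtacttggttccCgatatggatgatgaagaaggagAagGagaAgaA
SETSIP: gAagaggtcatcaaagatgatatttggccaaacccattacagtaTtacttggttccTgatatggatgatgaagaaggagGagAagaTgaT
A read that lies between the capitals could come from either gene, so the SETSIP level is uncertain and may hold SET reads. GENCODE 29 also names 19 pseudogenes after SET, 3 each after NAP1L1, NAP1L4 and ANP32B, 1 after ANP32A and none after the other members. How the counting treated reads that map to several places is not given in the sources used here.

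TSPYL2 (NM_022117, chrX:53111542-53117728, plus strand, hg19) encodes an X-linked nuclear protein of the same fold that is known to restrain cell growth and to bind the scaffold protein CASK. The NT shRNA libraries held its highest values and both targeting shRNAs its lowest. With the NT shRNA it stood at 29.612, 30.669 and 31.668 FPKM. It stood at 10.351, 11.363 and 11.888 FPKM with the ANXA4 shRNA and at 15.758, 14.249 and 14.227 with the B4GALNT1 shRNA. The 3 groups did not overlap, and the ANXA4 shRNA libraries were the lowest of all 21. In the RfxCasR libraries TSPYL2 was at 22.976, 21.022 and 23.305 FPKM with the NT gRNA and at 22.257, 24.546 and 24.139 with the B4GALNT1 gRNA. It was at 21.793, 19.724 and 20.701 FPKM in the libraries labelled NT array and at 23.949, 21.643 and 23.821 in those labelled ANXA4 array. All 12 therefore lay under the NT shRNA libraries and over the 2 other shRNA groups.

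The control chosen changes the size of the TSPYL2 gap. The mean with the ANXA4 shRNA, 11.2 FPKM ± 0.781 (SD, n = 3), was 63.5% below the NT shRNA mean of 30.6 ± 1.03 (difference -1.38, SE 0.057) and 50.1% below the NT gRNA mean of 22.4 ± 1.23 (difference -0.94). For SET the same pair of gaps was -1.43 and -1.52. With the B4GALNT1 shRNA TSPYL2 fell by 1.01 on the log2 scale (SE 0.057, limma adjusted p = 3.16e-09, lower in 3 of 3 libraries), in a test that shares the high NT shRNA libraries with the choosing comparison. The B4GALNT1 shRNA mean of 14.7 FPKM was 48.1% of the NT shRNA mean and 65.7% of the NT gRNA mean. With the B4GALNT1 gRNA it differed by 0.07 (95% interval -0.05 to 0.20, limma adjusted p = 0.910). Between the arrays as labelled it differed by 0.15 (95% interval 0.01 to 0.30, limma unadjusted p = 0.0439, adjusted p = 0.939), and the authors' deposited table gives -0.15.

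TSPYL1 and TSPYL4, autosomal relatives of TSPYL2, lie 20760 bases apart on the minus strand of chromosome 6 (TSPYL1, NM_003309, chr6:116596022-116601280, and TSPYL4, NM_021648, chr6:116571131-116575261, hg19). TSPYL1 was the only member that was higher with the ANXA4 shRNA. Its 3 values there were 48.708, 48.051 and 48.232 FPKM, and the other 18 libraries ran from 36.187 to 40.266 with a median of 38.7. The mean was 21.3% above the NT shRNA mean of 39.8 FPKM (difference 0.27, SE 0.032). In the tested comparisons it differed by -0.02 with the B4GALNT1 shRNA (95% interval -0.09 to 0.05, limma adjusted p = 0.635) and by -0.01 with the B4GALNT1 gRNA (95% interval -0.07 to 0.06, limma adjusted p = 0.998). TSPYL4 was the least abundant member. It stood at 5.828, 5.756 and 6.028 FPKM with the NT shRNA, at 5.844, 5.230 and 5.205 with the ANXA4 shRNA and at 5.071, 4.961 and 4.878 with the B4GALNT1 shRNA. The first 2 groups overlapped, while the B4GALNT1 shRNA libraries lay under both. The fall with the B4GALNT1 shRNA was 0.20 on the log2 scale (SE 0.048, limma adjusted p = 0.00265), where the authors' deposited table gives -0.20 with an adjusted p of 0.0704. In the 6 array libraries TSPYL4 was at 6.531 to 7.572 FPKM, above all 15 others, whose highest value was 6.028. Arrays and single guides also differed in depth, and the part of that was not tested.

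The balance within the TSPYL group differed between groups of libraries. TSPYL1 transcripts exceeded TSPYL2 transcripts 1.30-fold ± 0.0375 (SD, n = 3) in FPKM with the NT shRNA, 4.33-fold ± 0.336 with the ANXA4 shRNA and 2.67-fold ± 0.101 with the B4GALNT1 shRNA. In the RfxCasR groups the mean ratio was 1.64 to 1.82.

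The sequences upstream of members that differed in opposite directions are printed here to show their letters side by side. Each run is the 250 bases before a RefSeq transcription start (GRCh38.p14), read 5′ to 3′ on the gene's strand, with capitals marking CCAAT or its reverse complement ATTGG and GGGCGG or its reverse complement CCGCCC. The coordinates are chr9:128688972-128689221 for SET (plus strand, the window among its 5 that ends 5 bases before the start of the NM_003011 transcript), chrX:53082117-53082366 for TSPYL2 (plus strand) and chr6:116279931-116280180 for TSPYL1 (minus strand).
SET: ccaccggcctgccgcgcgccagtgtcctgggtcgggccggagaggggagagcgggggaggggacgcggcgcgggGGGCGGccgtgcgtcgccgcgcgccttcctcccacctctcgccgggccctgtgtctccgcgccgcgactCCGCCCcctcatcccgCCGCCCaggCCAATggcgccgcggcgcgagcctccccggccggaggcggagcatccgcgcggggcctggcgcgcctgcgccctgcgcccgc
TSPYL2: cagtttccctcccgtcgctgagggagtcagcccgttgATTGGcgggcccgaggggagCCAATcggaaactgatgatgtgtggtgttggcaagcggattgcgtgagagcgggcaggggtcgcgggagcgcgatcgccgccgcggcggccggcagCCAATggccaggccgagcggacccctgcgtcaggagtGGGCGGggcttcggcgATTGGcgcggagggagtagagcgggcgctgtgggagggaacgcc
TSPYL1: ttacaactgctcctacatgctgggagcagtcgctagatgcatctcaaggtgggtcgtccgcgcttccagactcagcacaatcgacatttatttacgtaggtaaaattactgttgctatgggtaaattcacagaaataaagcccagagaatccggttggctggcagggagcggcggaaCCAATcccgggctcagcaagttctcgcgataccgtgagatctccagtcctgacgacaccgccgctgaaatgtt
The printed windows are 82.8% G or C for SET, 70.4% for TSPYL2 and 51.6% for TSPYL1. The 5 SET windows ran from 37.2% to 83.6%, and those of the other members reached 77.2% for ANP32B and 78.8% for NAP1L4. CCAAT was found 1 time for SET, 4 times for TSPYL2 and 1 time for TSPYL1. GGGCGG was found 3 times for SET, 1 time for TSPYL2 and 0 times for TSPYL1. RefSeq windows were matched for 8 of the 9 members, all but ANP32E, with 15 windows in all, of which 9 held CCAAT and 11 held GGGCGG. SET and NAP1L4 each have several of these windows, and some of those of NAP1L4 overlap, so the windows are not independent. By gene, 5 of the 8 members had CCAAT and 7 of 8 had GGGCGG in at least 1 window. Over all 35116 RefSeq windows of this length, 32.0% held CCAAT, 42.6% held GGGCGG, and the median GC content was 58%. TATAAA (10.7% of windows), CCGGAAG (8.52%), TGACGTCA (1.65%), TTTCGCGC (0.439%) and AAGATGGC (1.36%) were searched on both strands and were not found in the members' windows. In the printed windows no base belonged to more than 1 match, and a match describes letters only.

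**Figure D1:**
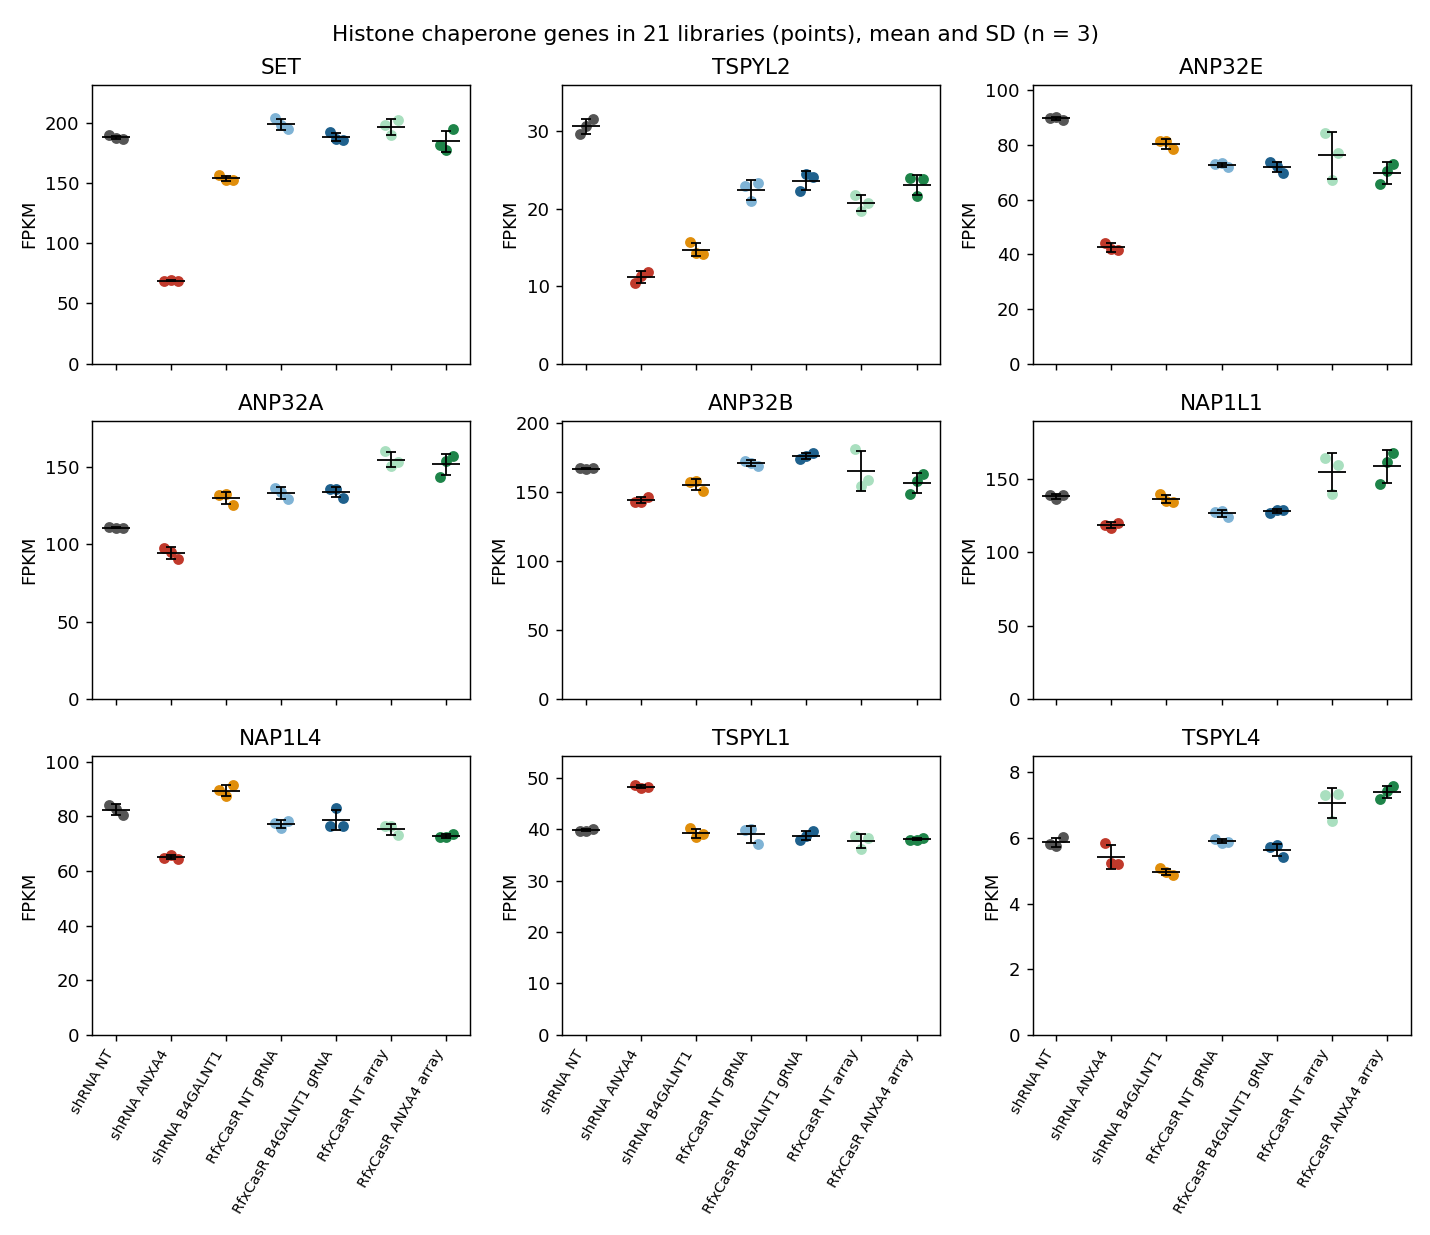
FPKM of the 9 genes (vertical axes, starting at 0) in 7 groups of 3 libraries, with each point a library, the long bar the mean and the short bars the SD. The ANXA4 shRNA points are the lowest of the 21 for SET, TSPYL2, ANP32E, ANP32A, ANP32B, NAP1L1 and NAP1L4, the highest for TSPYL1, and overlap others for TSPYL4.

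The NAP1-like proteins shuttle core histones between cytoplasm and nucleus and are broadly expressed. NAP1L1 (NM_001307924, chr12:76442372-76478813, minus strand, hg19) stood at 139.177, 136.053 and 138.582 FPKM with the NT shRNA, at 118.548, 116.212 and 120.154 with the ANXA4 shRNA and at 139.331, 134.855 and 134.331 with the B4GALNT1 shRNA. The ANXA4 shRNA values were the lowest of the 21 libraries, and the other 2 shRNA groups overlapped. The gap to the NT shRNA was -0.22 (SE 0.024), against the NT gRNA mean of 126.4 FPKM ± 2.22 only -0.09, and the authors' deposited table gives -0.13 for the ANXA4 shRNA. With the B4GALNT1 shRNA the difference was -0.02 (95% interval -0.07 to 0.03, limma adjusted p = 0.543). The authors' deposited table gives 0.11 there, with an adjusted p of 0.000165, so the call on NAP1L1 depends on the source. The array libraries reached 139.458 to 167.698 FPKM, above all 6 single-guide libraries at 123.821 to 128.745.

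NAP1L4 (NM_005969, chr11:2965660-3013607, minus strand, hg19) differed in opposite directions with the 2 targeting shRNAs. It stood at 84.359, 82.735 and 80.523 FPKM with the NT shRNA, at 64.829, 65.862 and 64.389 with the ANXA4 shRNA and at 89.657, 87.456 and 91.350 with the B4GALNT1 shRNA. The 3 groups did not overlap, and the 12 RfxCasR libraries lay between the outer groups at 72.352 to 83.002. The gap with the ANXA4 shRNA was -0.34 (SE 0.032). NAP1L4 rose with the B4GALNT1 shRNA by 0.12 (SE 0.032, limma adjusted p = 0.00865, higher in 3 of 3 libraries), and its difference with the B4GALNT1 gRNA was 0.03 (95% interval -0.04 to 0.10, limma adjusted p = 0.973).

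Among the ANP32 genes, ANP32E stood apart with the ANXA4 shRNA. ANP32E (NM_030920, chr1:150190717-150208504, minus strand, hg19) was at 89.799, 90.143 and 89.173 FPKM with the NT shRNA, at 44.267, 41.854 and 41.374 with the ANXA4 shRNA and at 81.320, 81.427 and 78.389 with the B4GALNT1 shRNA. The RfxCasR libraries, at 65.519 to 84.218, all lay under the NT shRNA libraries and over the ANXA4 shRNA libraries. The ANXA4 shRNA mean of 42.5 FPKM ± 1.55 was 52.6% below the NT shRNA mean of 89.7 ± 0.492 (difference -1.06, SE 0.029) and 41.5% below the NT gRNA mean of 72.7 ± 0.630 (difference -0.76). As with TSPYL2, the NT shRNA was the highest group, so the gap was larger against that control. ANP32E fell with the B4GALNT1 shRNA by 0.16 (SE 0.029, limma adjusted p = 0.000454), although its mean there, 80.4 FPKM, was 110.6% of the NT gRNA mean. With the B4GALNT1 gRNA the difference was -0.02 (95% interval -0.08 to 0.05, limma adjusted p = 0.990). Between the arrays as labelled it was -0.12 (95% interval -0.31 to 0.07, limma adjusted p = 0.978), with 0.14 in the authors' deposited table.

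ANP32A (NM_006305, chr15:69070875-69113261, minus strand, hg19) and ANP32B (NM_006401, chr9:100745489-100778224, plus strand, hg19), known also as host factors of the influenza virus polymerase, differed less. ANP32A was at 110.875, 110.310 and 110.288 FPKM with the NT shRNA, at 97.610, 95.262 and 90.276 with the ANXA4 shRNA and at 131.630, 132.046 and 125.022 with the B4GALNT1 shRNA. The NT shRNA libraries were under all 12 RfxCasR libraries (128.954 to 159.911), and the B4GALNT1 shRNA libraries overlapped those. The ANXA4 shRNA gap was therefore -0.23 (SE 0.032) against the NT shRNA and -0.49 against the NT gRNA. ANP32A rose with the B4GALNT1 shRNA by 0.23 (SE 0.032, limma adjusted p = 4.02e-05, higher in 3 of 3 libraries). Against the NT gRNA mean of 133.0 FPKM ± 3.68, however, the B4GALNT1 shRNA mean of 129.6 ± 3.94 was 97.4%. ANP32B was at 167.185, 166.247 and 167.034 FPKM with the NT shRNA, at 142.925, 142.909 and 146.197 with the ANXA4 shRNA (difference -0.21, SE 0.023) and at 157.126, 157.488 and 150.388 with the B4GALNT1 shRNA. It fell with the B4GALNT1 shRNA by 0.11 (SE 0.023, limma adjusted p = 0.00128). This was the least firm of the calls: the authors' deposited table gives -0.06 with an adjusted p of 0.0954, and limma's voom on recovered reads gave -0.06 with an adjusted p of 0.0638.

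The upstream window of ANP32A (chr15:68820896-68821145, minus strand, GRCh38.p14), printed for the member that rose most with the B4GALNT1 shRNA, is marked in the same way.
ANP32A: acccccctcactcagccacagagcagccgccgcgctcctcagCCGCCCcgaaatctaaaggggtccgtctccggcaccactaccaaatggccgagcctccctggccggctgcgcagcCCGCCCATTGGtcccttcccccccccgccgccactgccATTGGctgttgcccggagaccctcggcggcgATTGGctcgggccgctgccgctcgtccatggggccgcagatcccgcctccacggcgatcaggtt
It holds CCAAT 3 times and GGGCGG 2 times and is 71.2% G or C.

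The 9 genes were then set against all genes. In the ANXA4 shRNA libraries 7 of 9 members were below, and TSPYL1 above, every one of the other 18 libraries. Of all 13679 genes, 7.61% were below and 9.51% above in that way. Against the NT shRNA libraries alone the same 7 did not overlap and were below (31.1% of all genes) and TSPYL1 was above (29.9%). Since the ANXA4 shRNA comparison chose SET and TSPYL2, nothing is read from these counts. The median difference of the members from the NT shRNA was -0.23 and that of all genes -0.01. Under the same limma fit 55.6% of all genes were called in this comparison, so a difference there is common among genes of any kind. The NT shRNA libraries themselves did not overlap the 12 RfxCasR libraries for 3 members, with ANP32A below (12.9% of all genes) and TSPYL2 and ANP32E above (20.1%). The B4GALNT1 shRNA libraries were below all 12 for SET, TSPYL2 and TSPYL4 (11.7% of all genes) and above them for NAP1L4 (12.4%).

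limma called 7 of the 9 members with the B4GALNT1 shRNA, where 48.9% of all genes were called. That count includes SET and TSPYL2, by which the set was chosen, and uses the NT shRNA libraries of the choosing comparison. It is not an independent result about the set. NAP1L4 and ANP32A rose (20.3% of all genes did), and TSPYL2, SET, TSPYL4, ANP32E and ANP32B fell (28.6% of all genes did). The differences ran from -1.01 for TSPYL2 to 0.23 for ANP32A with a median of -0.11, beside -0.04 over all genes. Among all genes 2778 were higher and 3908 lower in this comparison, and 3516 and 3067 with each library centred on its median, so the overall split depends on the scaling. The 7 calls on members kept their directions under that scaling.

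With RfxCasR, limma called 0 of 9 members with the B4GALNT1 gRNA and 0 of 9 between the arrays, with 0.0219% of all genes (3 genes) called in each. At an unadjusted p under 0.05 there was 1 member in each, SET with the gRNA and TSPYL2 between the arrays, and voom on recovered reads called 0 in each. The share of all genes at that unadjusted threshold was not counted, so nothing is read from such counts here or for the lists below. The members' differences with the gRNA ran from -0.08 to 0.07 with a median of 0.01. Between the arrays they ran from -0.12 to 0.15 with a median of -0.03. SEs between the arrays were 0.045 to 0.083 for the members, and 0.023 to 0.057 with the gRNA, so the arrays resolve less. The ANXA4 shRNA and the arrays were not tested against each other for the members, because the shRNA side chose them.

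B4GALNT1 was targeted by both methods, so the change by shRNA was tested against the change by gRNA in the same fit. limma called 5 of 9 members, where 35.1% of all genes were called (15.2% higher and 20.0% lower). SET and TSPYL2 are again in the count, and the NT shRNA libraries of the choosing comparison are again used. TSPYL2 changed by 1.08 log2 units more toward lower levels with the shRNA (difference of differences -1.08, SE 0.081, adjusted p = 1.65e-07). For SET the value was -0.21 (SE 0.032, adjusted p = 0.000174), for ANP32B -0.15 (adjusted p = 0.00224) and for ANP32E -0.14 (adjusted p = 0.0159), all by limma. ANP32A had the opposite sign, at 0.22 (SE 0.046, limma adjusted p = 0.00175). In a fit of all 21 libraries 3 calls were left, without ANP32B (adjusted p = 0.0841) and ANP32E (adjusted p = 0.201), both by limma. NAP1L4, at 0.09 with a limma adjusted p of 0.149, passed the threshold without the second B4GALNT1 gRNA library, which held its highest RfxCasR value of 83.002 FPKM (0.13, adjusted p = 0.0229). The B4GALNT1 transcript itself fell by 0.43 with the shRNA and by 1.09 with the gRNA, and these changes differed as well (0.67, SE 0.11, limma adjusted p = 0.000334).

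**Figure D2:**
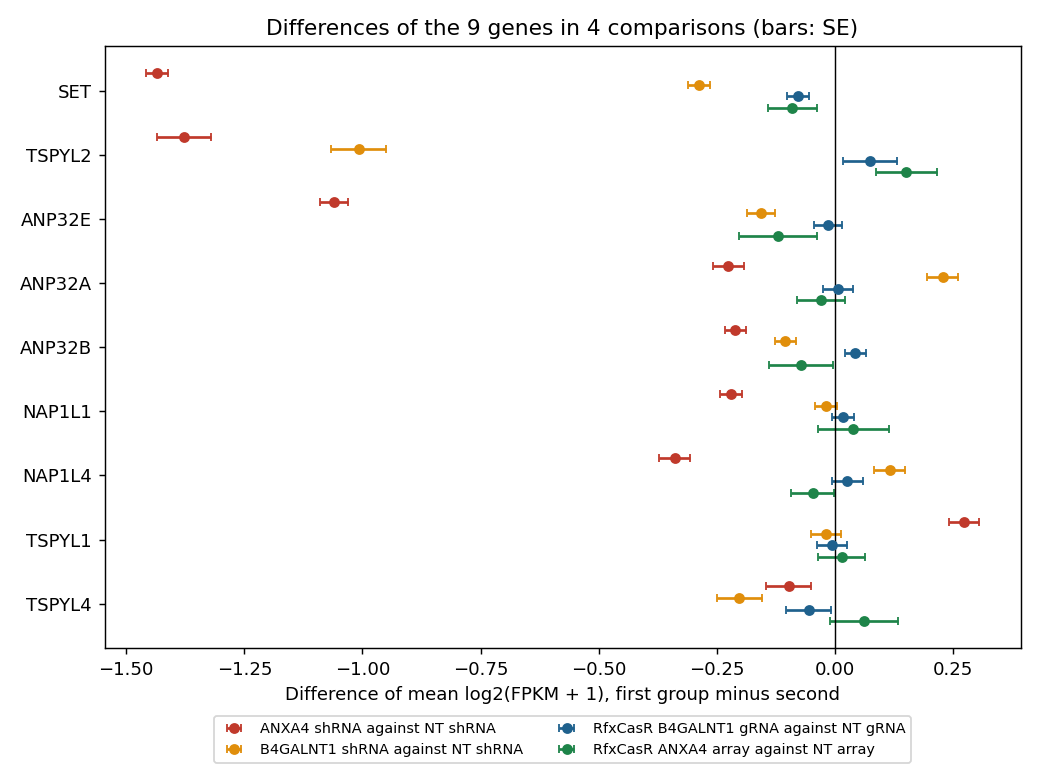
Difference of mean log2(FPKM + 1) of each gene (first group minus second, horizontal axis) in 4 comparisons, with bars of 1 SE. In red, SET, TSPYL2 and ANP32E lie at -1.43, -1.38 and -1.06 with the ANXA4 shRNA. In blue and green, the RfxCasR comparisons stay between -0.12 and 0.15 for the 9 genes.

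The summed level and the ranking of the members also differed by group. The 9 transcripts summed to 851.7 FPKM ± 3.86 (SD, n = 3) with the NT shRNA, 598.0 ± 3.29 with the ANXA4 shRNA and 803.3 ± 13.0 with the B4GALNT1 shRNA. In the RfxCasR groups the mean sum was 844 to 887 FPKM. SET made up 22.1% ± 0.0997 of the sum with the NT shRNA and 11.5% ± 0.0875 with the ANXA4 shRNA, while the 3 ANP32 genes went from 43.1% ± 0.114 to 47.0% ± 0.372. The level of the 3 ANP32 genes together was lower, at 280.9 FPKM ± 3.56 with the ANXA4 shRNA against 367.0 ± 0.736 with the NT shRNA. Their larger share is thus of a smaller sum. By FPKM, which is per length of exon, the order with the NT shRNA was SET, ANP32B, NAP1L1, ANP32A, ANP32E, NAP1L4, TSPYL1, TSPYL2 and TSPYL4, and no neighbours in that order overlapped. With the ANXA4 shRNA ANP32B led at 144.0 FPKM, SET ranked behind NAP1L1 and ANP32A at 68.9, and TSPYL1 at 48.3 passed ANP32E at 42.5, again with no overlap between neighbours. With the B4GALNT1 shRNA ANP32B (155.0) and SET (153.7) overlapped at the top. In the single-guide groups SET led without overlap.

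**Figure D3:**
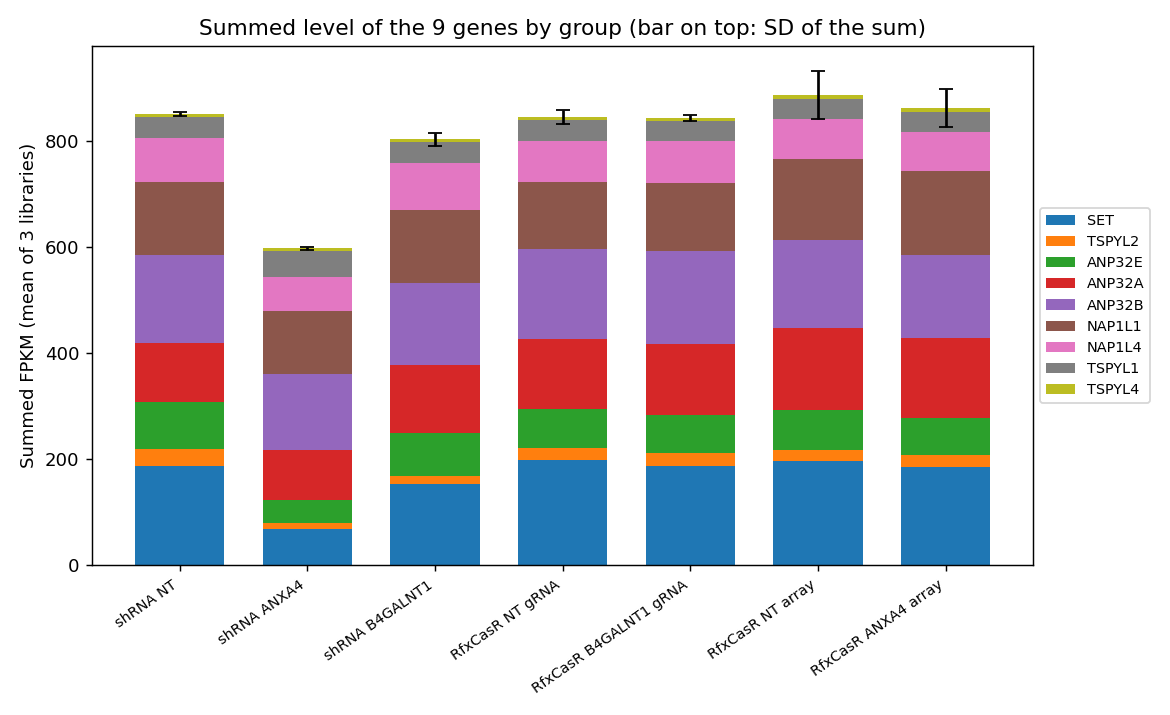
Summed mean FPKM of the 9 genes (vertical axis, starting at 0) stacked by gene in each of 7 groups, with the bar on top giving the SD of the sum over 3 libraries. The ANXA4 shRNA stack reaches 598.0 and the others 803.3 to 887.2, and the SET layer is thinner in the ANXA4 shRNA stack than in any other stack.

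Other genes of these families were few and low. Of 11 such genes, 10 were in the table and 5 passed the filter, namely SETSIP, NAP1L2, NAP1L3, ANP32C and ANP32D. limma called 2 of the 5 lower with the ANXA4 shRNA, where 28.1% of all genes were, namely SETSIP, which may hold the SET reads that chose the set, and NAP1L3 (4.61 to 3.42 FPKM, difference -0.34, adjusted p = 0.000839). It called ANP32C higher with the B4GALNT1 shRNA (6.15 to 8.66 FPKM, difference 0.44, adjusted p = 0.00126), as were 20.3% of all genes. ANP32C is 94.7% identical to ANP32A over the 701 bases aligned, and ANP32D 92.6% over 960. They share fewer unbroken stretches of 50 bases with it than SETSIP does with SET, 2.59% and 0.988% of theirs. NAP1L5 reached 0.048 FPKM at most, and NAP1L6, TSPYL5, TSPYL6 and TSPY1 were listed at 0 in all libraries.

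Histone chaperones of other families were counted from a list of 30, of which 29 were tested. With the ANXA4 shRNA 8 rose and 12 fell by limma (27.5% and 28.1% of all genes did), with a median of -0.08. The B4GALNT1 shRNA libraries had 7 that rose and 13 that fell, with a median of -0.09 (20.3% and 28.6% of all genes, a split that turned under median centring as given above). RBBP4, a histone-binding subunit of several chromatin complexes, fell from 43.0 FPKM ± 1.23 to 28.6 ± 0.360 with the ANXA4 shRNA (difference -0.57, adjusted p = 2.38e-10 by limma). HIRA and UBN1, 2 parts of the complex that deposits histones outside replication, fell by 0.62 and 0.70 there. Other listed genes tied to that complex did not fall with the ANXA4 shRNA. CABIN1 and UBN2 differed by 0.01 and 0.12 and were not called (limma adjusted p = 0.89 and 0.107). ASF1A rose by 0.17 (limma adjusted p = 0.0272). RBBP4 and HIRA were below all other libraries with the ANXA4 shRNA, while UBN1 overlapped them. The UBN1 mean was 11.88 FPKM with the ANXA4 shRNA and 19.93 with the NT shRNA. It was 12.36 and 12.43 in the libraries labelled ANXA4 array and NT array. Of the 29 genes, 6 were below and 3 above all other libraries with the ANXA4 shRNA, and 20 overlapped. SUPT5H, a transcription elongation factor, rose by 0.47 with the ANXA4 shRNA and by 0.38 with the B4GALNT1 shRNA. MCM2 of the replicative helicase, DAXX, a chaperone of a variant histone, and TONSL, a replication-linked histone reader, fell with the B4GALNT1 shRNA by 0.34, 0.42 and 0.37. The MCM2 and DAXX means there, 126.506 and 48.976 FPKM, were under every RfxCasR group mean (lowest 144.201 and 57.997). The TONSL mean there, 19.77 FPKM, was not. TONSL was at 15.98 and 16.22 in the arrays labelled NT and ANXA4. It was at 20.44 with the NT gRNA, 21.15 with the B4GALNT1 gRNA and 25.78 with the NT shRNA. The 29 differences ran from -0.72 to 0.47 with the ANXA4 shRNA. With the B4GALNT1 gRNA and between the arrays limma called 0 of 29, with 3 and 2 at an unadjusted p under 0.05 and 0 by voom.

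Partners of the members were described from a list of 16, all tested. With the ANXA4 shRNA 6 rose and 7 fell by limma (27.5% and 28.1% of all genes did), and with the B4GALNT1 shRNA 5 rose and 2 fell (20.3% and 28.6%). NME1, a nucleoside diphosphate kinase that SET is known to inhibit, rose from 319.2 FPKM ± 12.6 to 543.3 ± 16.6 with the ANXA4 shRNA (difference 0.77, limma adjusted p = 1.30e-10) and to 392.9 ± 13.7 with the B4GALNT1 shRNA (difference 0.30, limma adjusted p = 4.39e-06). In the RfxCasR groups its mean was 394 to 464 FPKM, above the NT shRNA mean. HMGB2, a DNA-bending protein found with SET, fell by 0.35 with either targeting shRNA, from 395.1 FPKM to 309.2 (ANXA4) and 309.3 (B4GALNT1). Its RfxCasR group means, at 276.2 to 321.3 FPKM, were also below the NT shRNA mean. XPO1, the nuclear exporter, and PPP2R1A, the scaffold of protein phosphatase 2A, fell by 0.50 and 0.36 with the ANXA4 shRNA and were not called with the B4GALNT1 shRNA. With the ANXA4 shRNA XPO1 was below all other libraries, while PPP2R1A overlapped them. The PPP2R1A mean was 123.3 FPKM there and 126.3 and 125.0 in the libraries labelled ANXA4 array and NT array. The catalytic subunits PPP2CA and PPP2CB differed by -0.02 and -0.15 with the ANXA4 shRNA (limma adjusted p = 0.531 and 0.00352). ELAVL1, an RNA-binding protein whose ligands include ANP32 proteins, rose by 0.34 with the B4GALNT1 shRNA, and KPNA2, an importin, by 0.20. With the B4GALNT1 gRNA limma called 0 of 16, 1 at an unadjusted p under 0.05, and between the arrays 0 of 16, also 0 at an unadjusted p under 0.05. voom called 0 in each.

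**Figure D4:**
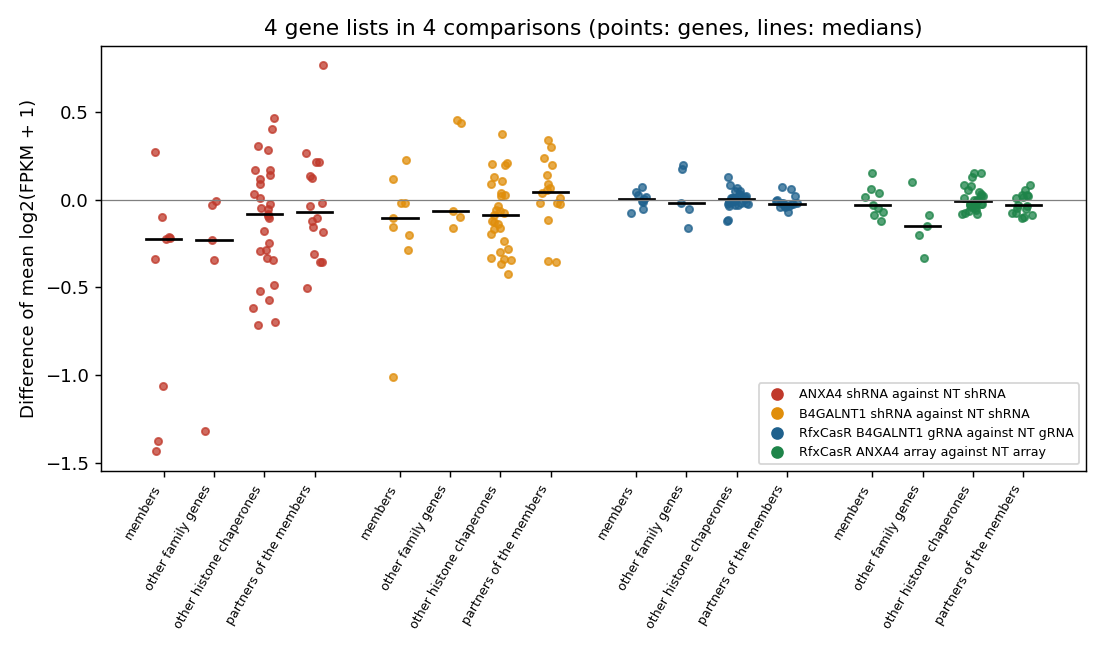
Difference of mean log2(FPKM + 1) (vertical axis) of each tested gene in 4 lists and 4 comparisons, with points for genes and lines for medians. The 4 lowest points with the ANXA4 shRNA are SET, TSPYL2, SETSIP and ANP32E, and the RfxCasR points stay near 0, between -0.33 and 0.20.

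The genes whose pattern was most like that of SET and TSPYL2 were listed by Pearson's r of log2(FPKM + 1) over the 15 libraries outside the arrays, as a description among 11893 genes. For SET they were TMEM43, a nuclear envelope protein (r = 0.992), BCL2L2, a survival factor (0.992), RAB11FIP1, a Rab GTPase effector (0.991), FIBP, a growth factor binding protein (0.990), and EIF4H, a translation initiation factor (0.988). BCL2L2 went from 8.42 FPKM with the NT shRNA to 3.91 with the ANXA4 shRNA. For TSPYL2 they were LAMA5, a laminin chain (r = 0.989), IGFBP5, a growth factor binding protein (0.980), PPP6R2, a phosphatase subunit (0.979), PLA2G12A, a phospholipase (0.978), and LBR, the lamin B receptor (0.977). LBR went from 84.3 FPKM with the NT shRNA to 40.8 with the ANXA4 shRNA and 48.4 with the B4GALNT1 shRNA. SET and TSPYL2 themselves had an r of 0.843, below that of SET with ANP32E (0.906), and SET and TSPYL1 had -0.945. The 15 points form groups of 3 libraries that share a construct, so these values rest largely on the differences between the groups described above.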

How the data were processed

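Polyadenylated RNA from 21 libraries in 7 groups of 3 was sequenced from stranded libraries, per the labels' protocols. The submitters' processing notes name FastQC, STAR, HOMER, DESeq2 1.14.1, R 3.3.2 and the build hg19. The authors deposited FPKM values and exon lengths, which HOMER counted in exons on the sense strand and condensed to genes, per the file headers. They also deposited 4 comparison tables with a mean normalized count, treated as a signal, a log2 change and p-values, per the file headers.

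FPKM was fitted on the log2(FPKM + 1) scale by limma 3.58.1 (R 4.3.3, variance trended on intensity) for genes that reached 1 FPKM in 3 or more libraries, and a Benjamini-Hochberg adjusted p under 0.05 counted as a call. The 15 shRNA and single-guide libraries shared 1 fit and the 6 array libraries another, because the arrays vary more. Whole reads were recovered from FPKM and length for a voom alternative (97.6% to 99.7% of values were whole within 0.1 of a read). The fits of the B4GALNT1 shRNA, B4GALNT1 gRNA and array comparisons were tested on simulated data. The ANXA4 shRNA comparison and the difference between the B4GALNT1 changes were not simulated. Other alternatives were the pseudocount, the filter, the scaling, the libraries fitted, a replicate block and leaving out each library.

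The members and lists were chosen with earlier results of these data known. The named genes are the 9 members, the 2 targets, the called genes of smallest p in each list (up to 4), and the 5 genes most correlated with SET and with TSPYL2. Other listed genes of the same complexes are named beside these. Genes that overlap ANP32A or NAP1L4 on the same strand were at 0.541 FPKM or less.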

Additional observations from a re-analysis of the deposited data

Results flagged for a closer look

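For 5 members the change with the B4GALNT1 shRNA differed from the change with the B4GALNT1 gRNA by limma's test of the difference itself. The difference of differences on the log2(FPKM + 1) scale was -1.08 for TSPYL2, -0.21 for SET, -0.15 for ANP32B, -0.14 for ANP32E and 0.22 for ANP32A. In a fit of all 21 libraries ANP32B (limma adjusted p = 0.0841) and ANP32E (0.201) lost the call, which left 3. The shRNA side of each value uses the NT shRNA libraries. In those libraries TSPYL2 and ANP32E were above, and ANP32A below, all 12 RfxCasR libraries, as were 20.1% and 12.9% of all genes, while SET and ANP32B overlapped them. Whether the NT shRNA itself bears on these levels was not tested.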

How the results depend on the processing

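With the 12 RfxCasR and 9 shRNA libraries in 1 fit, limma called 3 members for the difference between the B4GALNT1 shRNA and gRNA changes in place of 5. ANP32B (adjusted p = 0.0841) and ANP32E (0.201) lost the call at the same difference, in a fit that also holds the more variable arrays. The other counts of called members stayed within 1.5 times under the alternatives run. Without any 1 library they were 7 with the B4GALNT1 shRNA, 0 with the gRNA, 0 between the arrays and 5 to 6 for the difference. ANP32B lost its B4GALNT1 shRNA call in the fit of all 21 libraries (limma adjusted p = 0.0610) and with voom. The replicate block gave 7 calls with the B4GALNT1 shRNA, 0 with the gRNA, 0 between the arrays and 5 for the difference. Same-numbered libraries correlated at -0.146 to 0.072 in their deviations, and different-numbered ones at -0.158 to 0.172. In the gRNA comparison every same-numbered value (0.033 to 0.072) was above the different-numbered ones (-0.055 to 0.0008). Whether the numbers pair libraries is therefore not settled by these values. Of 621 values of members in the tested comparisons under alternatives, 586 kept direction and call, and 25 changed sign, all uncalled and within 0.0329 of 0. All 144 values of the untested ANXA4 shRNA comparison kept their direction. With the B4GALNT1 shRNA the values that changed sign were TSPYL1 (0.0272 median-centred, 0.0228 with voom) and NAP1L1 (0.0285 and 0.0240). NAP1L1 kept its sign and was called under quantile scaling (-0.08, limma adjusted p = 0.0191). With the gRNA TSPYL1 was 0.000988 under quantile scaling. For the difference TSPYL1 was 0.0329 median-centred and 0.0270 with voom, and NAP1L1 0.0110 and 0.00379. TSPYL1 between the arrays was -7.52e-05 with voom. Without 1 library at a time, the ranges that crossed 0 were, with the gRNA, -0.0419 to 0.0124 for TSPYL1, -0.0159 to 0.0254 for ANP32A, -0.0128 to 0.0456 for NAP1L4 and -0.0321 to 0.00523 for ANP32E. Between the arrays they were -0.0149 to 0.0324 for TSPYL1, -0.0326 to 0.0956 for NAP1L1 and -0.0562 to 0.00771 for ANP32A, and for the difference -0.0322 to 0.0221 for TSPYL1. The cause was not tested. Over all genes the 3 calls with the gRNA became 14 with voom, 5 under quantile scaling, 1 in the fit of all 21 libraries, 1 in that of only the groups compared, 1 with the replicate block, and 1 without B4GALNT1 gRNA replicate 1 or 2 or NT gRNA replicate 1 or 2, and the 3 between the arrays became 39 in the fit of all 21 libraries, 8 with no filter, 6 with voom, 5 at a filter of 5 FPKM, and 1 without the libraries labelled NT array replicate 1 or 3 or ANXA4 array replicate 2 or 3. Fitting the arrays alone is already the fit of only the groups compared, so that alternative adds nothing there. Each member had at least 461 reads per library.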
